A study of Homo sapiens with 9 samples.

Results

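Notch signalling genes were followed in SKNO-1, an acute myeloid leukaemia line of human origin with the RUNX1-RUNX1T1 (AML1-ETO) fusion, after knockdown of the chromatin regulator ASXL2. The 10 genes were chosen by name out of the 25680 gene symbols in the files: the receptors NOTCH1, NOTCH2 and NOTCH3, the partial gene copy NOTCH2NL, the ligands JAG1, JAG2 and DLL1, and the effectors HES1, RBPJ and DTX1. Messenger RNA was sequenced from 9 samples: 3 of control cells (shControl, EV in the labels, an abbreviation they do not explain), and 3 each with the hairpins shASXL2-2 (SH2) and shASXL2-3 (SH3) against ASXL2. Cells of all groups were SKNO-1 grown with GM-CSF, and each group has samples numbered 1, 13 and 25, numbers whose meaning the labels leave unstated. A single cell line limits what the groups can stand for, and the study calls the samples of a group biological replicates without saying how the cultures were kept apart, so p values measure the spread between these samples.

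Notch receptors are membrane proteins that are cut after a neighbouring cell presents a Jagged or Delta ligand. The released intracellular part enters the nucleus, binds the DNA-binding protein RBPJ and, with Mastermind coactivators, switches on target genes such as HES1, a transcriptional repressor, and DTX1, an E3 ubiquitin ligase that modulates the pathway. In blood, Notch is best known for driving T cell fate and, through mutated NOTCH1, T cell leukaemia, while its part in myeloid cells depends on context. The question here was whether the effectors follow NOTCH2 when ASXL2 is lowered.

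The promoter of HES1 is shown first because it carries the letters by which RBPJ is known to bind. The sequence comes from RefSeq (GRCh38.p14, chr3:194135898-194136197, plus strand), from 250 bases before to 50 bases after the transcription start, with every match to TGGGAA or GTGGGAA (either strand, overlapping matches joined) in capitals.
HES1: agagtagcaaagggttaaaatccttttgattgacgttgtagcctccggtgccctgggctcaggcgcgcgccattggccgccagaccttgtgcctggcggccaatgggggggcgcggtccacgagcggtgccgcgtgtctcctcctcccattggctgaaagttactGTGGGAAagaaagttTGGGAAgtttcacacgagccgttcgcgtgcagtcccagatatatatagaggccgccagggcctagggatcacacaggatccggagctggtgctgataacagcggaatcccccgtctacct
Across all 35116 promoters of this length in the table, TGGGAA or its reverse complement occurred in 24.0% and the longer GTGGGAA in 6.25%. The HES1 promoter held 2 matches to TGGGAA, of which 1 was also a match to GTGGGAA. Of the 8 members with a promoter in the table, HES1 and RBPJ held these letters, RBPJ with 2 matches to GTGGGAA in 1 of its 5 promoters, and the promoters of NOTCH1, NOTCH2, NOTCH2NL, NOTCH3, JAG1 and JAG2 held none in this window. DLL1 and DTX1 were not in the table.

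NOTCH2NL is a partial duplicate of the first part of NOTCH2, and the last 140 aligned bases of the promoters are shown because the genes can be confused in counting. Capitals mark the position that differs.
NOTCH2: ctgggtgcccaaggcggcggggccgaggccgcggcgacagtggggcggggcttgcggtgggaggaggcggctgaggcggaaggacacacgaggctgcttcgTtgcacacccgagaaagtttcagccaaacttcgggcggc
NOTCH2NLA: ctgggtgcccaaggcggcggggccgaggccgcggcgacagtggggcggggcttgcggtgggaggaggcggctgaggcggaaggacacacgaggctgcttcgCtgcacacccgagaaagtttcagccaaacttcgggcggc
These stretches lie at chr1:120069613-120069752 and chr1:146228987-146229126 on the minus strand (RefSeq, GRCh38.p14), the NOTCH2NL row of the files being matched through its accession to NOTCH2NLA. Over the 285 bases that overlap, the promoters differed at 1 position (99.6% identity). Within the spliced NOTCH2 transcript a different measure was taken, exact matches of 100 bases. Of 11326 such windows, 180 (1.59%) occurred unchanged in any of 15 annotated NOTCH2NL transcripts (GENCODE on GRCh37), all starting within the first 468 bases. Near matches, and the share of NOTCH2NL that matches NOTCH2, were not counted.

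The libraries held 27714431 to 35406063 counts with 1 transcript row per gene. A count of 3, taken as the floor for reading low levels, was worth 0.0825 to 0.109 CPM, the count scaled to a common library size. Genes with no reads kept a value of 0 CPM. The myeloid markers MPO, CD33, KIT and PTPRC were present in all 9 samples, MPO at 6368 to 10243 CPM, while CD34 was near the floor at 0.068 to 0.309 CPM. Of the 5 T cell markers none was above 0.0926 CPM, and CD3E and CD3G had no counts. None of the tested marker genes passed in either fit. The target itself, ASXL2, was at 26.9 to 41.1 CPM in the 6 knockdown samples and at 67.9 to 74.7 CPM in the controls. Log2 fold changes of ASXL2 were -1.03 (SE 0.16) for shASXL2-2 and -1.12 (SE 0.16) for shASXL2-3, which did not pass across genes in edgeR's quasi-likelihood test (adjusted p 0.808 and 0.612) but did once the sample number entered as a block (adjusted p 0.00469 and 0.00407).

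NOTCH2, NOTCH1 and RBPJ were the abundant members, and the ligands and targets were scarce. Compared per length of transcript in shControl, RBPJ stood highest at 28.8 ± 1.58 CPM per kb (SD, n = 3). NOTCH2 followed at 15.7 ± 1.42 and NOTCH1 at 14.3 ± 2.71 CPM per kb, values that lie within each other's spread. JAG1 (2.01 ± 0.345), HES1 (1.27 ± 0.616) and JAG2 (1.07 ± 0.0971 CPM per kb) formed the next level, with HES1 not apart from either neighbour beyond their spread. NOTCH3 (0.144 ± 0.0331) and DTX1 (0.0952 ± 0.0463 CPM per kb) were lowest and also within each other's spread. NOTCH2NL was left out of this order because the annotated transcript may be longer than the authors' row. DLL1 had 0 to 6 counts in any sample and failed the filter on low counts, which left 9 of 10 members for testing. The plot of levels by sample shows these values on linear axes.

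**Figure D1:**
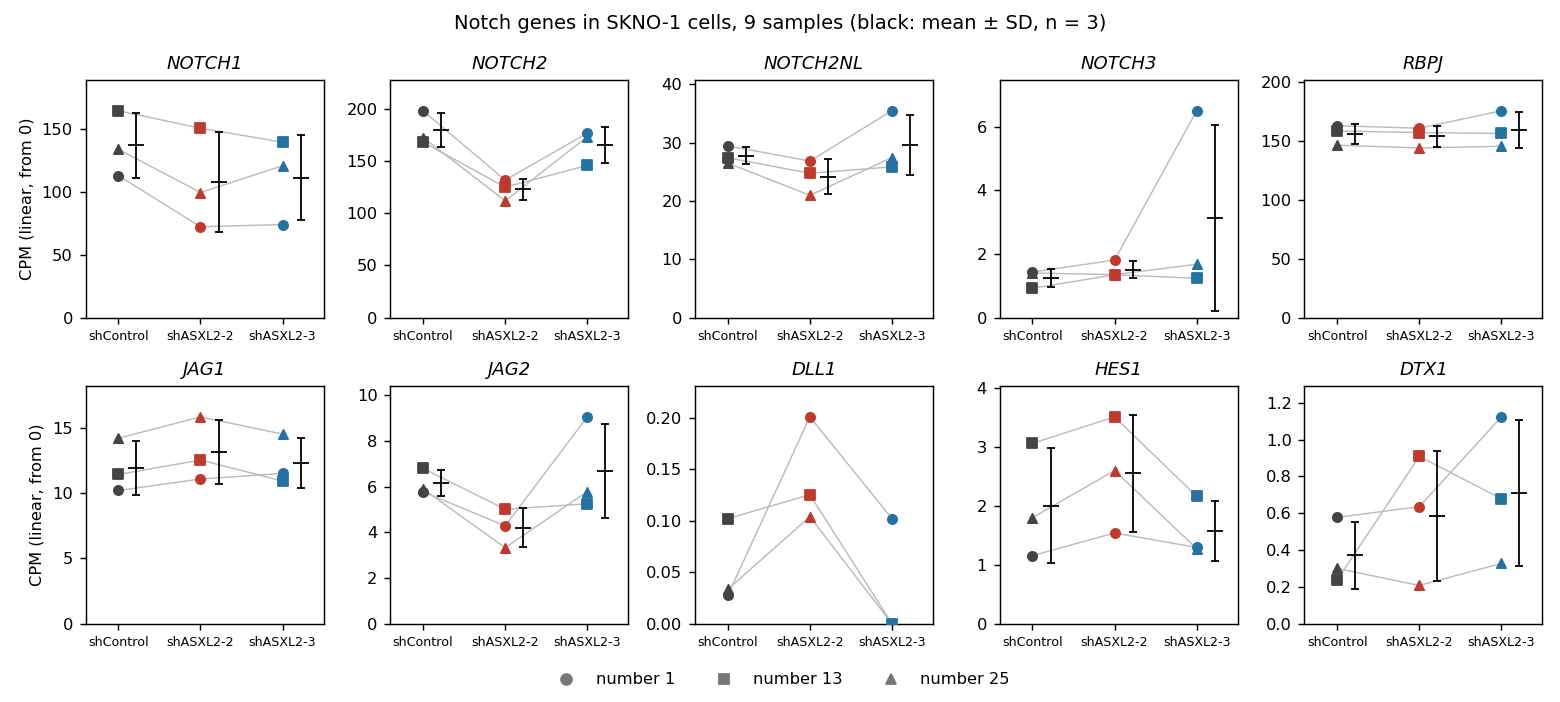
Level of each of the 10 Notch genes in the 9 samples, in CPM on a linear axis that starts at 0 in every panel and has its own range; points are samples, with shapes for the sample number and grey lines joining equal numbers, and black bars give the mean ± SD (n = 3, not drawn for DLL1). NOTCH2 and JAG2 are the genes whose 3 shASXL2-2 samples all lie under the 3 controls, and the high NOTCH3 point is the shASXL2-3 sample numbered 1 at 6.50 CPM.

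Among the receptors, NOTCH2 was lower with shASXL2-2 and close to control with shASXL2-3. NOTCH2 (NM_024408, chromosome 1, 120454176 to 120643366, minus strand, GRCh37) was at 198, 168 and 173 CPM in the shControl samples numbered 1, 13 and 25. With shASXL2-2 it was at 132, 125 and 112 CPM, and with shASXL2-3 at 177, 146 and 174 CPM. All 3 shASXL2-2 samples lay under all controls, whereas the shASXL2-3 samples overlapped them. As a share of its matched control, NOTCH2 stood at 68.6% ± 5.09 (SD, n = 3) under shASXL2-2, with values of 66.5%, 74.4% and 64.8%, and 92.1% ± 7.32 with shASXL2-3, where the sample numbered 25 was at 100.4%.

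The NOTCH2 call depended on the fit. The log2 fold change with shASXL2-2 was -0.55 (SE 0.11) in edgeR without the block (adjusted p 0.808) and -0.54 (SE 0.08) once the block was added (adjusted p 0.0428). With shASXL2-3 it was -0.12 in both fits, with a 95% interval of -0.29 to 0.06 under the block, and shASXL2-3 was above shASXL2-2 by 0.43 (blocked 95% interval 0.25 to 0.60), a difference that did not pass across genes (adjusted p 0.998 without the block and 0.0884 with it). Without the block edgeR called 0% of the 14199 genes tested in each contrast, while an unadjusted p under 0.05 was found for 5.37% with shASXL2-2, 5.09% with shASXL2-3, 6.63% with the shRNAs averaged and 2.06% between the hairpins, and DESeq2 without the block called 24, 22, 42 and 11 genes. The blocked fit called 0.282% of genes under shASXL2-2, 0.416% under shASXL2-3, 1.1% when the shRNAs were averaged and 0.106% between the hairpins. In edgeR, NOTCH2 was the single member called under the block, with shASXL2-2 and for both shRNAs averaged (log2 fold change -0.33, SE 0.07, adjusted p 0.0488). In the blocked fit that also corrected for transcript length and GC content, NOTCH2 (11.4 kb) was at -0.32 with shASXL2-2 (adjusted p 0.105) and at -0.13 averaged (adjusted p 0.287), so neither call held, and at 0.06 with shASXL2-3 (adjusted p 0.695). The averaged call also missed the threshold when the blocked fit was merely limited to the 13714 genes with a known length (edgeR adjusted p 0.0546), whereas DESeq2 without the block gave NOTCH2 an adjusted p of 0.0105 with shASXL2-2. A two-sided exact permutation test of NOTCH2 log2 CPM in all 6 knockdown samples against the 3 controls gave p = 0.107 over 84 splits and p = 0.148 over the 27 splits with 1 control of each number.

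NOTCH1, the receptor with the best known role in T cells, was lower than its matched control in every pair. NOTCH1 (NM_017617, chromosome 9, 139388885 to 139440500, minus strand, GRCh37) was at 113, 164 and 134 CPM in shControl, in the order 1, 13 and 25. It was at 72.2, 150 and 99.3 CPM under shASXL2-2 and at 73.9, 139 and 121 CPM with shASXL2-3. The groups overlapped, and the samples numbered 13 were high and those numbered 1 low in every group. Against the control of the same number, NOTCH1 kept 64.0% to 91.6% with shASXL2-2 and 65.5% to 90.2% with shASXL2-3. NOTCH1 was the single member of 9 that was lower in 6 of 6 pairs, which was also so for 11.6% of all genes tested. Averaged over the shRNAs, the log2 fold change of NOTCH1 was -0.32 (SE 0.25) without the block, for which edgeR gave an adjusted p of 0.902. Under the block it was -0.37 (SE 0.09, edgeR adjusted p 0.0727), and -0.18 once length and GC were corrected for (edgeR adjusted p 0.358). DESeq2 with the block did call NOTCH1, with each shRNA and averaged. Leaving out 1 library moved the unblocked average. It was -0.17 without the control numbered 13, -0.21 without shASXL2-3 numbered 1 and -0.22 without shASXL2-2 numbered 1. These fits left the numbers unequal between groups, so they mix the library itself with its number. Single libraries were not left out under the block. In the two-sided exact permutation test the NOTCH1 p was 0.262 over the 84 splits and 0.037 over the 27 splits within numbers, the smallest value those splits allow, which restates that the control was the highest sample of each number. In all, 15 values were tested in this way, each over both sets of splits and with no adjustment.

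**Figure D2:**
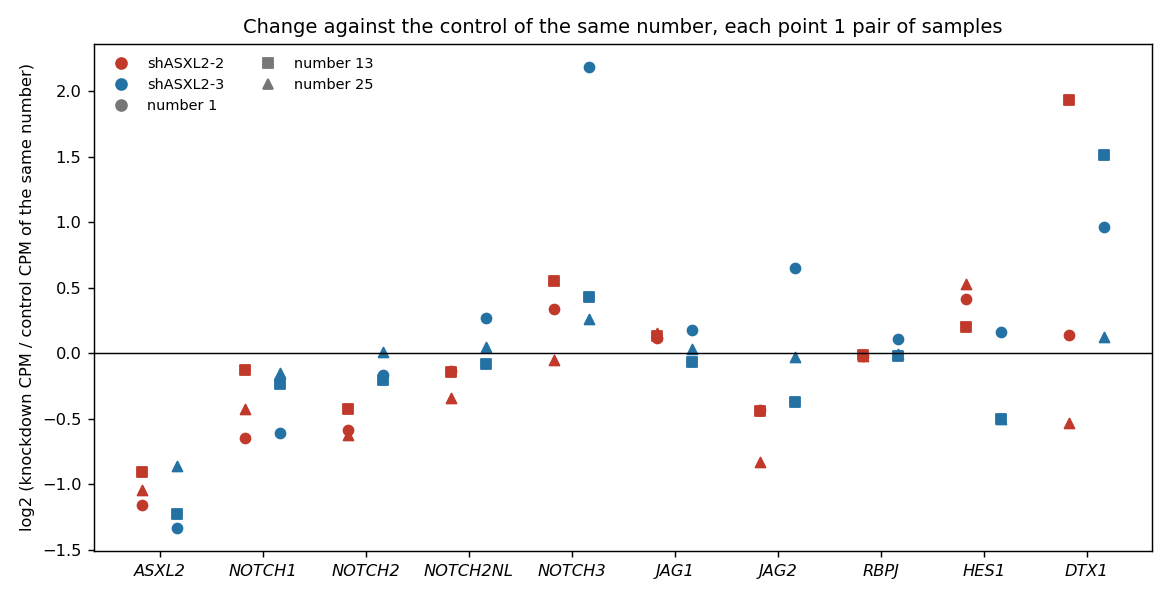
Change of ASXL2 and of the 9 tested Notch genes, as log2 of the CPM in a knockdown sample over the CPM of the control with the same number; each point is 1 pair, red for shASXL2-2 and blue for shASXL2-3, with shapes for the number. All 6 NOTCH1 points lie under 0, RBPJ points lie between -0.02 and 0.11, and HES1 lies above 0 in all 3 shASXL2-2 pairs.

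The other receptor rows did not pass in any contrast. NOTCH2NL was at 29.5, 27.4 and 26.5 CPM in the controls, at 26.9, 24.8 and 21.0 CPM under shASXL2-2 and at 35.5, 25.8 and 27.4 CPM with shASXL2-3, again numbered 1, 13 and 25. As for NOTCH2 the mean was lowest with shASXL2-2, but with shASXL2-3 it lay above control, where NOTCH2 lay below. That higher mean rested mostly on the library numbered 1, at 120% of its matched control, against 94.3% and 104% for those numbered 13 and 25. The blocked log2 fold change of NOTCH2NL with shASXL2-3 was 0.08 (95% interval -0.12 to 0.28). The blocked log2 fold change of NOTCH2NL with shASXL2-2 was -0.20 (95% interval -0.40 to -0.004, edgeR adjusted p 0.261). The log2 ratio of NOTCH2 to NOTCH2NL fell by 0.27 from control to knockdown samples (two-sided exact permutation test, p = 0.0357 over 84 splits and p = 0.037 over 27), a ratio chosen after the values were seen.

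NOTCH3, itself a known Notch target, was at 1.43, 0.918 and 1.40 CPM in the controls, at 1.81, 1.35 and 1.35 CPM under shASXL2-2 and at 6.50, 1.24 and 1.67 CPM with shASXL2-3. A single library, the shASXL2-3 sample numbered 1, stood out with 191 counts, against 27 to 54 in the other 8 samples. The log2 fold change with shASXL2-3 was 1.32 (SE 0.56, edgeR adjusted p 0.967), and 0.20 without that library.

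The files hold 2 rows for NOTCH2, and the smaller one did not pass with either shRNA, though its share of the larger row was below that of the matched control in every pair. Row NM_001200001, annotated as a shorter form of the transcript, had 1863, 1265 and 1563 counts in the controls numbered 1, 13 and 25. It had 677, 941 and 702 counts with shASXL2-2 and 874, 785 and 1287 counts with shASXL2-3. Relative to NM_024408, which shares reads with it, this row amounted to 27.2% ± 2.59 (SD, n = 3) in shControl, against 20.8% ± 3.29 under shASXL2-2 and 20.1% ± 5.94 under shASXL2-3. The share was below that of the matched control in all 6 pairs, but the groups overlapped, since shASXL2-3 numbered 25 at 27.004% lay above 2 of the 3 controls.

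The log2 of this share differed between knockdown and control samples by -0.43 (two-sided exact permutation test, p = 0.0476 over 84 splits and p = 0.037 over 27), again a test chosen after the values were seen. With every row as a feature, NM_001200001 had blocked log2 fold changes of -0.93 and -0.57 (both SE 0.18) for shASXL2-2 and shASXL2-3, with edgeR adjusted p values of 0.0743 and 0.137. For NM_024408 they were -0.55 and -0.12 (both SE 0.08), with edgeR adjusted p values of 0.0482 and 0.401.

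**Figure D3:**
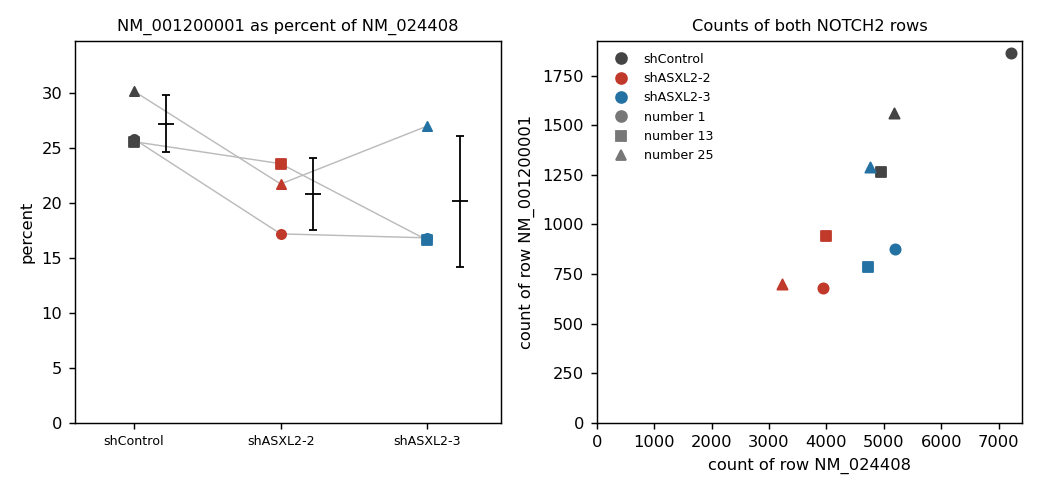
The left panel plots the count of NOTCH2 row NM_001200001 as percent of row NM_024408 in each sample, with mean ± SD (n = 3) in black; the right panel plots the counts of both rows against each other, in reads. The controls lie at 25.6% to 30.2%, and 5 of the 6 knockdown samples lie at 16.6% to 23.6%.

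The ligands did not pass in any contrast. JAG2 (NM_002226, chromosome 14, 105607319 to 105635161, minus strand, GRCh37) was at 5.78, 6.80 and 5.90 CPM in the controls and at 4.29, 5.01 and 3.33 CPM with shASXL2-2. It was at 9.06, 5.25 and 5.79 CPM with shASXL2-3. NOTCH2 and JAG2 were the 2 members of 9 whose shASXL2-2 samples all lay below the controls, as did 7.8% of all genes tested. With shASXL2-3 no member did, against 5.28% of genes, nor with all 6 knockdown samples together, against 2.61%. No member lay wholly above the controls, against 7.15% of genes with shASXL2-2, 4.81% with shASXL2-3 and 2.16% with both. For JAG2 under shASXL2-2 the log2 fold change was -0.55 with or without the block (SE 0.20 and 0.24), with edgeR adjusted p values of 0.188 and 0.910. With shASXL2-3 JAG2 was at 0.12, and at -0.16 without the library numbered 1.

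JAG1, the other Jagged ligand, varied by sample number rather than by group, at 10.2, 11.4 and 14.2 CPM in the controls numbered 1, 13 and 25. It was at 11.1, 12.54 and 15.8 CPM under shASXL2-2 and at 11.5, 10.9 and 14.5 CPM with shASXL2-3. The blocked log2 fold change was 0.14 (95% interval -0.07 to 0.34) with shASXL2-2 and 0.05 (95% interval -0.16 to 0.26) with shASXL2-3. DLL1, the Delta ligand of the set, had 1, 3 and 1 counts in the controls, 6, 4 and 3 with shASXL2-2 and 3, 0 and 0 with shASXL2-3, too few to compare at this depth.

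No effector passed in any contrast in edgeR, with or without the block. RBPJ (NM_203284, chromosome 4, 26165077 to 26436753, plus strand, GRCh37) was at 163, 158 and 146 CPM in the controls, at 160, 157 and 144 CPM under shASXL2-2 and at 175, 156 and 145 CPM with shASXL2-3. The samples of each number lay close together, and the shASXL2-3 sample numbered 1 was the highest. The RBPJ log2 fold change was -0.02 with shASXL2-2 (blocked 95% interval -0.16 to 0.12, edgeR adjusted p 0.903) and 0.03 with shASXL2-3 (blocked 95% interval -0.11 to 0.17, edgeR adjusted p 0.845), which bounds a difference of RBPJ more tightly than for any other member.

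HES1 (NM_005524, chromosome 3, 193853937 to 193856521, plus strand, GRCh37), whose promoter with its RBPJ-type letters is printed above, was at 1.16, 3.06 and 1.80 CPM in the controls numbered 1, 13 and 25. It was at 1.54, 3.51 and 2.60 CPM under shASXL2-2 and at 1.29, 2.16 and 1.27 CPM with shASXL2-3. The groups overlapped, and HES1 rested on 35 to 112 counts a sample. With shASXL2-2, where NOTCH2 was lower in 3 of 3 pairs, HES1 was higher in 3 of 3, at 133%, 115% and 144% of its matched control. The share of all genes with 3 of 3 pairs on a side was not counted, so these counts do not set HES1 or NOTCH2 apart. Even 6 of 6 pairs over both shRNAs were lower for 11.6% of genes and higher for 11.6%. With shASXL2-3 HES1 was at 112%, 70.6% and 70.8%. The blocked log2 fold change was 0.37 (95% interval -0.06 to 0.80, edgeR adjusted p 0.332) with shASXL2-2 and -0.30 (95% interval -0.76 to 0.16, edgeR adjusted p 0.454) with shASXL2-3. Between the hairpins HES1 was lower with shASXL2-3 by a log2 difference of -0.67 (95% interval -1.12 to -0.22), which did not pass across genes (edgeR adjusted p 0.258). Leaving out the shControl sample numbered 13 turned the unblocked shASXL2-3 value from -0.34 to 0.10. With 1 library left out the shASXL2-2 value of 0.35 ranged from 0.06 (without shASXL2-2 numbered 13) to 0.79 (without the control numbered 13). Such unblocked fits leave the numbers unequal between groups, and the number took 68.1% of the HES1 sum of squares. The log2 ratio of HES1 to NOTCH2 was higher by 0.39 in the knockdown samples (two-sided exact permutation test, p = 0.488 over 84 splits and 0.444 over 27), and that of RBPJ to NOTCH2 by 0.34 (exact p = 0.0714 and 0.148).

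DTX1 (NM_004416, chromosome 12, 113494535 to 113535833, plus strand, GRCh37) had 6 to 33 counts a sample. It was at 0.578, 0.238 and 0.3001 CPM in the controls, at 0.636, 0.909 and 0.208 CPM under shASXL2-2 and at 1.12, 0.679 and 0.328 CPM with shASXL2-3. The values were higher than the matched control in 5 of 6 pairs but overlapped, and the blocked log2 fold changes of 0.63 (95% interval -0.30 to 1.55) and 0.88 (95% interval -0.02 to 1.77) did not pass across genes (edgeR adjusted p 0.438 and 0.274). Without the block the shASXL2-2 value of 0.63 moved to 0.16 without shASXL2-2 numbered 13 and to 1.12 without the control numbered 1, and the shASXL2-3 value of 0.91 to 0.42 without shASXL2-3 numbered 1 and to 1.39 without the control numbered 1.

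To describe the likeness to NOTCH2 over single samples, the mean of the samples with the same number was removed from log2 CPM, and Pearson's r with NOTCH2 was taken over the 9 samples. Both genes of a pair are read from the same libraries, and the samples fall into groups, so r is given without a p value. HES1 had r = -0.72 and stood at rank 13035 of 14198 genes, RBPJ had r = 0.36 (rank 4130) and DTX1 r = -0.12 (rank 7921). NOTCH1 had r = 0.74 (rank 1023), NOTCH2NL r = 0.80 (rank 645) and JAG2 r = 0.81 (rank 601), while JAG1 had r = -0.69 and the receptor NOTCH3 r = 0.03 (rank 6770). Over the 6 samples numbered 13 and 25, HES1 had r = -0.71, RBPJ 0.80 (rank 1257), NOTCH1 0.83 (rank 1005) and JAG2 0.98 (rank 48). In these samples RBPJ was almost flat, with deviations of -0.013 to 0.011 log2 CPM, against -0.42 to 0.21 for NOTCH2. With the number means kept, NOTCH1 had r = 0.09, below RBPJ at 0.33, and HES1 r = -0.63. The median gene had r = -0.01. The 5 genes most like NOTCH2 were FRY (r = 0.99), TROVE2, APPL1, WASF2 and IREB2 (r = 0.98 for IREB2). None of the other members was among them. The list holds for this measure alone, as the 5 leading genes were others with the number means kept (RALGAPA2 first) and over the samples numbered 13 and 25 (ASB3 first).

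**Figure D4:**
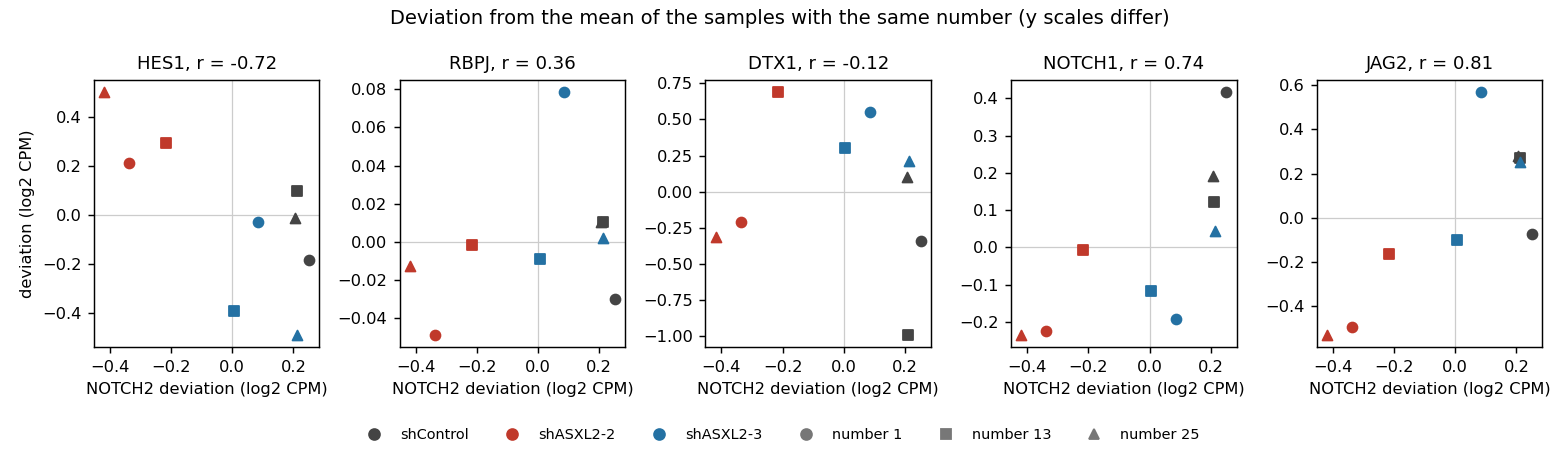
Deviation of log2 CPM from the mean of the samples with the same number, for NOTCH2 on the horizontal axis and for HES1, RBPJ, DTX1, NOTCH1 and JAG2 on the vertical axes, whose ranges differ; colours mark the groups and shapes the numbers, and r is over the 9 points. The 3 shASXL2-2 samples lie at the left in every panel, above 0 for HES1 (r = -0.72) and below 0 for NOTCH1 (r = 0.74) and JAG2 (r = 0.81).

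The members also differed in what their variation followed. For JAG1, RBPJ, NOTCH1 and HES1 the sample number took 86.8%, 85.3%, 73.4% and 68.1% of the sum of squares of log2 CPM. For NOTCH2 the group took 82.1% and the number 10.7%, and for ASXL2 the group took 89.9%. The medians over all genes tested were 56.8% for the number and 17.9% for the group.

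The rest of the pathway was read from lists of genes by role. Of 6 other receptors and ligands, DLL3 and DLK2 were abundant enough to test, and NOTCH4 had no count in any sample. DLL3, a Delta-family protein that restrains Notch within the cell that makes it, was at 18.0, 16.6 and 12.2 CPM in the controls, at 14.7, 11.1 and 10.4 CPM under shASXL2-2 and at 12.4, 8.34 and 5.79 CPM with shASXL2-3. It was lower in 6 of 6 pairs, as were 11.6% of all genes tested. DLL3 fell under the block with shASXL2-3 (log2 fold change -0.85, SE 0.13, edgeR adjusted p 0.0300) and for both shRNAs averaged (-0.61, SE 0.11, edgeR adjusted p 0.0379), but did not pass without it (edgeR adjusted p 0.967 and 0.728). With the length and GC correction the shASXL2-3 value was -0.87 (edgeR adjusted p 0.0283). DLL3 had its lowest mean with shASXL2-3 and NOTCH2 with shASXL2-2, though neither difference between the hairpins passed under the block (edgeR adjusted p 0.203 and 0.0884).

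Of the Notch target list, 9 of 16 genes were tested, and HEY1 and HEY2 had no counts. Under the block for both shRNAs averaged, 1 target rose and 0 fell, against 1.1% of all genes called. The gene that rose was HES6, a HES-family protein known to counteract HES1, and whether Notch drives it in these cells was not tested. HES6 was at 9.46, 12.04 and 10.1 CPM in the controls, 13.6, 17.4 and 17.1 CPM under shASXL2-2 and 10.2, 15.1 and 12.6 CPM under shASXL2-3. It was higher in 6 of 6 pairs, as were 11.6% of all genes tested. Its log2 fold change was 0.61 (SE 0.10, edgeR adjusted p 0.0428) with shASXL2-2 and 0.26 (SE 0.10, edgeR adjusted p 0.207) with shASXL2-3, and the first was not called without the block (edgeR adjusted p 0.808) or after the length and GC correction (0.54, edgeR adjusted p 0.105). The target with the largest size of change was IL7R, a T cell growth factor receptor, at 0.248 to 0.866 CPM (blocked log2 fold change 0.78 for both shRNAs averaged, SE 0.29, edgeR adjusted p 0.175). IL7R rested on 9 to 25 counts a sample. Of the 9 targets, 5 lay below 0 and 4 above. CDKN1A was lower in 6 of 6 pairs (mean 70.7% of the matched control), as were 11.6% of all genes tested. NRARP was lower in 4 of 6 (mean 85.9%). The median of the 9 targets was -0.08, against 0.01 over all genes tested.

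Of 13 tested genes of the nuclear complex and its corepressors, 10 (76.9%) lay below 0 in the blocked average of both shRNAs, against 47.9% of all genes tested. Against 1.1% of all genes called, 1 of these 13 fell and 0 rose. The median log2 fold change was -0.28, and -0.12 with the length and GC correction, where 10 still lay below 0. The gene that fell was SPEN, a corepressor that binds RBPJ (-0.48, SE 0.09, edgeR adjusted p 0.0472), at 204 to 213 CPM in the controls and 125 to 186 CPM in the knockdown samples. Its transcript is 12.4 kb long, and with the length and GC correction it was at -0.26 (edgeR adjusted p 0.127). The 14 processing and glycosylation genes leaned the other way in the same average. Only 4 (28.6%) lay below 0, against 47.9% of all genes tested, and the median was 0.01. Of these 14 genes, 1 fell and 0 rose. It was FURIN, the protease that cuts the receptor precursor, with log2 fold changes of -0.47 (SE 0.07, edgeR adjusted p 0.0428) with shASXL2-2 and -0.20 (SE 0.07, edgeR adjusted p 0.191) with shASXL2-3. The length and GC correction moved the first to -0.40 (edgeR adjusted p 0.0722). NCSTN and PSENEN, subunits of the gamma-secretase that makes the final cut, did not pass, at 0.06 and 0.26. Within this list PSENEN, APH1A and MFNG were higher than the matched control in 6 of 6 pairs, and FURIN was lower in 6 of 6. Either pattern was found for 11.6% of all genes tested.

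Of 11 turnover and trafficking genes, 2 fell under the block for both shRNAs averaged and 0 rose, against 1.1% of all genes called. The median was -0.11, and 8 (72.7%) lay below 0, against 47.9% of all genes tested. In the blocked fit limited to genes with a known length, DLL3 (edgeR adjusted p 0.045) and FURIN (0.0461) kept the averaged call, and SPEN, HES6, NEURL1B and AAK1 were between 0.0535 and 0.0561. The turnover genes that fell were NEURL1B, a ubiquitin ligase that acts on Notch ligands (-0.35, SE 0.07, edgeR adjusted p 0.0463), and AAK1, an endocytosis kinase (-0.34, SE 0.07, edgeR adjusted p 0.0473). After the length and GC correction these were at -0.23 (edgeR adjusted p 0.187) and -0.07 (edgeR adjusted p 0.520). None of the genes of these lists passed in edgeR without the block. Their part in the receptor levels was not tested.

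**Figure D5:**
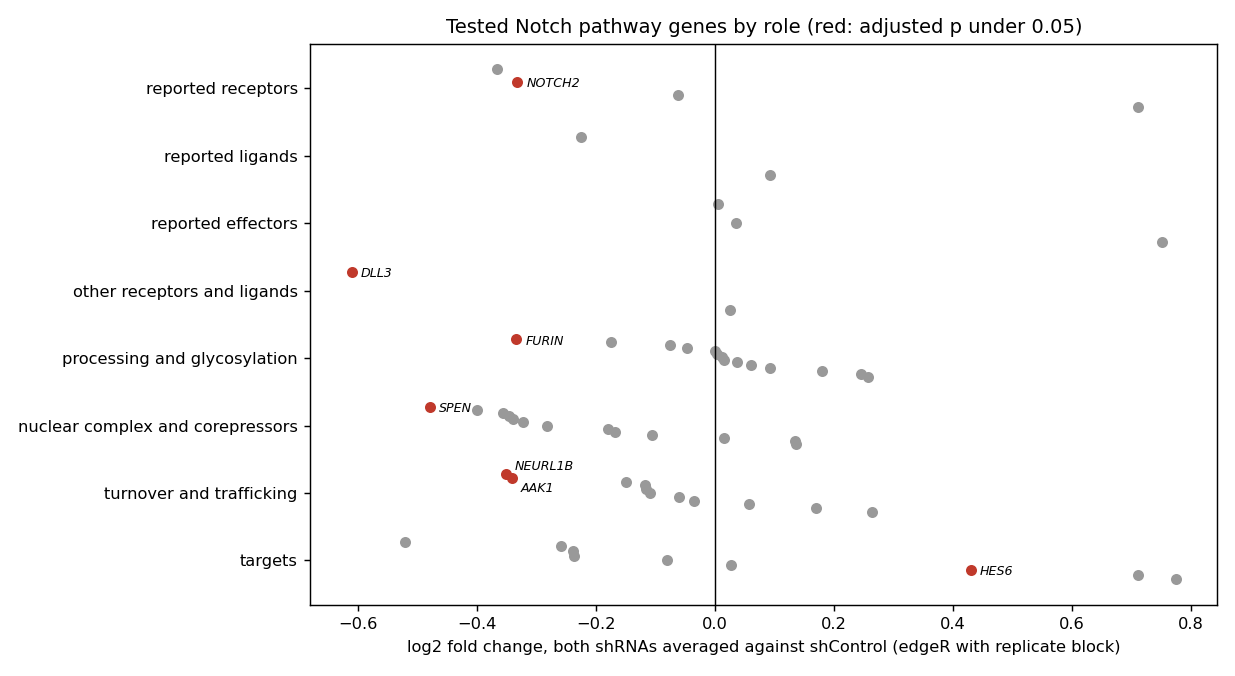
Log2 fold change for both shRNAs averaged against shControl in the edgeR fit with the replicate block, for every tested gene of the pathway lists, 1 point per gene and 1 row per role (NOTCH3 appears as a receptor and as a target). Red points passed an adjusted p under 0.05, as 1.1% of all genes tested did; NOTCH2, DLL3, FURIN, SPEN, NEURL1B and AAK1 lie below 0 and HES6 above.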

How the data were processed

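The authors deposited whole-number counts per RefSeq transcript on hg19 (GRCh37), not normalized, with 48104 rows in each of 9 samples. The submitters' notes name STAR, featureCounts and DESeq2 without versions or roles, and the extraction text in the labels describes sorted marrow and not the named line. Rows of a gene can share reads, so each symbol was represented by the row with the highest total. Reads carry no molecular identifiers, so floors cover counting error only. Libraries were unstranded per the study's methods, so antisense overlap cannot be told apart.

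Counts were tested with edgeR 4.0.16 in R 4.3.3 (quasi-likelihood, TMM scaling, filterByExpr with minimum count 10 and total 15, Benjamini-Hochberg over 14199 genes, threshold 0.05), with all 9 samples in 1 fit and no block, as the study's methods name none. The standard error is the size of the log2 fold change over the square root of F. A second fit added the sample number as a block. Samples of equal number deviated together from their groups in all 9 pairs (lowest r 0.398, mean 0.598), above the highest of 18 other pairs (r 0.306). The numbers were therefore taken to pair the samples. The mean of the other pairs, -0.291, adds nothing, since deviations within a group sum to 0 and tie it to the first mean. Values were log2 CPM with a prior count of 2 for permutation and likeness, and CPM is per effective library. Transcript lengths came from GENCODE on GRCh37. The length and GC correction was fitted per sample over 13714 genes. DESeq2 1.42.0, other scalings, filters and left-out samples served as alternatives. The fits were tested on simulated data with the spread of the blocked fit and no effect of the sample number. That check cannot show how the fit without the block fares where the numbers differ, as they do here. Members were all named, with pathway genes named when past the threshold or largest in their list, and the 5 genes most like NOTCH2. A few more pathway genes were named to show the spread within their list. Members and lists were chosen with earlier results of these data known.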

Additional observations from a re-analysis of the deposited data

How the results depend on the processing

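The number of genes called by edgeR was 0 in every contrast without the replicate block and depended on the fit. For shASXL2-2, shASXL2-3, the shRNAs averaged and the hairpins against each other in that order, it was 40, 59, 156 and 15 with the block, 38, 48, 74 and 13 with the block over genes with a length, and 4, 41, 21 and 23 when the length and GC correction was added. DESeq2 called 24, 22, 42 and 11 genes, and 362, 469, 606 and 150 with the block. Leaving out the samples numbered 1 under the block gave 267, 341, 370 and 129. Leaving out 1 library at a time without the block gave 0 to 1 for shASXL2-3 and 0 to 2 for the average.

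NOTCH2 with shASXL2-2 passed at -0.54 with the block, -0.55 with the block over genes with a length, -0.55 in DESeq2, -0.54 in DESeq2 with the block and -0.52 with the block and no samples numbered 1. The average passed at -0.33, -0.33 and -0.31 with the block in edgeR, in DESeq2 and without the samples numbered 1, and the difference between hairpins at 0.42 in the last 2 of these fits. NOTCH1 passed in DESeq2 with the block (adjusted p 0.0144 with shASXL2-2, 0.0479 with shASXL2-3 and 0.00581 averaged). Single libraries were left out without the block only, which leaves the numbers unequal between groups. With 1 library left out, NOTCH2 ranged from -0.60 to -0.47 with shASXL2-2, from -0.18 to -0.04 with shASXL2-3 and from -0.38 to -0.26 averaged. NOTCH1 ranged from -0.67 to -0.13, from -0.49 to -0.078 and from -0.48 to -0.17 in the same contrasts.

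Directions that turned were mostly of values near 0. The length and GC correction with the block gave 0.014 for RBPJ with shASXL2-2, 0.057 for NOTCH2 with shASXL2-3, and 0.046 for NOTCH2NL and -0.023 for HES1 averaged. Library totals alone gave -0.017 for RBPJ with shASXL2-3, and -0.015 for HES1 and -0.027 for RBPJ averaged. Without the samples numbered 1, shASXL2-3 gave -0.019 for NOTCH2NL, -0.014 for JAG1, -0.21 for JAG2 and -0.016 for RBPJ, and -0.019, -0.016, -0.20 and -0.016 with the block, while the averages were -0.078 for HES1 (-0.076 with the block) and -0.015 for RBPJ in both fits. With number means kept, the likeness of DTX1 to NOTCH2 was 0.071. Leaving out 1 library gave -0.025 to 0.29 for JAG1 and -0.061 to 0.017 for RBPJ with shASXL2-2. With shASXL2-3 it gave -0.066 to 0.18 for NOTCH2NL, -0.087 to 0.19 for JAG1, -0.16 to 0.27 for JAG2, -0.63 to 0.10 for HES1 and -0.051 to 0.093 for RBPJ. Averaged, it gave -0.010 to 0.24 for JAG1, -0.27 to 0.45 for HES1 and -0.036 to 0.039 for RBPJ, and between hairpins -0.052 to 1.45 for NOTCH3. The cause was not tested. Apart from the calls of NOTCH2 above, the block changed no member's call in edgeR. Depth limits DLL1, DTX1, HES1 and NOTCH3, the members with the fewest counts.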
